A study of Mus musculus with 4 samples.

Results

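The genes of prostaglandin E2 synthesis, uptake, breakdown and reception were followed in 4T1 cells exposed to interleukin-17A. The 9 genes were chosen by symbol: Pla2g4a, Ptgs1, Ptgs2, Ptges, Ptges2, Ptges3, Slco2a1, Hpgd and Ptger4. Of these, 8 had a row among the 21840 genes of the deposited table, and Hpgd was not analysed here. The 4T1 line is a mouse mammary carcinoma cell line of epithelial origin, labelled as wild type in every library. It was grown in RPMI medium with fetal bovine serum and received recombinant IL-17A (rIL17, 2 libraries) or phosphate-buffered saline (PBS, 2 libraries). The labels used here give no dose or duration of the cytokine. They also do not say if replicate libraries are separate cultures, and the p-values may therefore reflect technical spread alone. Each library averages over a whole culture, so more expressing cells and more RNA per cell cannot be told apart.

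Prostaglandin E2 is made in steps. A phospholipase A2 frees arachidonic acid from membrane phospholipids, a cyclooxygenase turns it into prostaglandin H2, and a terminal synthase isomerises that to prostaglandin E2. Cells clear the product by taking it up through a transporter and oxidising it, and they sense it through G protein-coupled EP receptors. In mammary tumors the pathway is known for its inducible cyclooxygenase, Ptgs2 (COX-2), which inflammatory signals switch on, while Ptgs1 (COX-1) is regarded as constitutive.

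The 300 bases around the annotated starts of 4 of the genes are printed because they set the inducible against the constitutive cyclooxygenase, and the terminal synthase genes Ptges and Ptges2, which had the smallest p-values of the group. The sequences are those of RefSeq (GRCm38.p6, the assembly also called mm10), each from 250 bases before to 50 bases after the start, written along the gene's strand. Pla2g4a has windows 1 and 2. For Ptges, Slco2a1 and window 2 of Pla2g4a the start lies well inside the gene's span in GENCODE, the annotation used for the gene positions below. Capitals mark matches on either strand to TTGCGCAA (a palindromic C/EBP motif), CACGTG (an E-box), TGACG (a CRE half-site), GGGCGG (a GC box), TATAAA and the kB consensus. The windows are chr1:150099781-150100080 (plus strand) for Ptgs2, chr2:36230176-36230475 (plus strand) for Ptgs1, chr2:30903248-30903547 (minus strand) for Ptges and chr2:32395640-32395939 (plus strand) for Ptges2.
Ptgs2: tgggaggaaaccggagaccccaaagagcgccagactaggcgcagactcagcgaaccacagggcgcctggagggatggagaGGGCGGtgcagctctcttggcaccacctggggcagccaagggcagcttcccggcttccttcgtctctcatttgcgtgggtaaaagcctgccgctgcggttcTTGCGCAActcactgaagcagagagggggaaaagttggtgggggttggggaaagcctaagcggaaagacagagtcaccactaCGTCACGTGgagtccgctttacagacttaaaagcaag
Ptgs1: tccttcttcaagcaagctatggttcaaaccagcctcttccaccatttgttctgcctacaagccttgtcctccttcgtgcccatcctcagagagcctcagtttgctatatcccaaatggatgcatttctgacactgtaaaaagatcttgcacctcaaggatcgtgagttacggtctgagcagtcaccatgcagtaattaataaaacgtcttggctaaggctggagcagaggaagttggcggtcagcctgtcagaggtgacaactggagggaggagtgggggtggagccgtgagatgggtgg
Ptges: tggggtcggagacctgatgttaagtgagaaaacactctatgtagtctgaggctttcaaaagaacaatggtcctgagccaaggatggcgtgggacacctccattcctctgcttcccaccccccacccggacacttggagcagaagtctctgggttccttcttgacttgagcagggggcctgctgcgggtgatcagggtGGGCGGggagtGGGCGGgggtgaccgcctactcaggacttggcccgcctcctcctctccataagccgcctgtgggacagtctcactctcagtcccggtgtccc
Ptges2: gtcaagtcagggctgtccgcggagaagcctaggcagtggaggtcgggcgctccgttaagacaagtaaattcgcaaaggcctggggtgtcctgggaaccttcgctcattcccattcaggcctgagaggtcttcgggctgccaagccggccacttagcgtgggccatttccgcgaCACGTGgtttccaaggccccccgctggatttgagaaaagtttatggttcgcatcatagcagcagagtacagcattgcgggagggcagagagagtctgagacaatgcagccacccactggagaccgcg

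The Ptgs2 window held the C/EBP palindrome 69 bases upstream of the annotated start, a GC box 170 bases upstream, and an E-box that overlaps a CRE half-site just downstream of the start. Of 32851 promoters in the same table, 0.183% hold TTGCGCAA, 7.15% hold CACGTG, 20.8% hold TGACG and 35.7% hold GGGCGG. The Ptgs1 window held none of the motifs searched. The Ptges window held 2 GC boxes, at 53 and 42 bases upstream, and the Ptges2 window an E-box 77 bases upstream. Of the other genes, Ptges3 held a match to the kB consensus, which 8.46% of promoters hold, and Slco2a1 held TATAAA 29 bases upstream, which 13.6% hold. Ptges3, Ptger4 and Slco2a1 also held GC boxes, and Ptges3 a CRE half-site. Window 2 of Pla2g4a, well inside the gene, held a match to TATAAA, and window 1 held none of the motifs. A match describes these letters only, and no binding was measured.

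The values of each library were whole multiples of 1 step, as read counts that the authors divided by 1 scaling factor per library would be, and they are called normalized counts. No source used here states that step, and the factors lie so near 1 that the scaling rests on the values alone. Read in this way, each library had 17511450 to 17970104 reads assigned to genes. The response to the cytokine was present in both treated libraries. Lcn2, the lipocalin-2 gene and a classical target of IL-17A, had 28833.0 and 28095.6 normalized counts in rIL17, against 8447.6 and 8498.1 in PBS, and rose by 1.75 on the log2 scale (limma adjusted p = 0.000314). All 5 genes of the fixed treatment check, which also held Il6, Cxcl1, Cebpd and Nfkbiz, passed the test. These are genes an earlier description of the same data had already shown, so they are no independent support. Of 7 epithelial markers 6 had a row, summing to 41728.6 and 43426.1 normalized counts in rIL17 and 49464.3 and 53101.9 in PBS. Their keratin gene Krt8 had 25497.6 and 26466.8 normalized counts in rIL17 and 29749.2 and 32665.0 in PBS. The leukocyte gene Ptprc had 3.0 and 2.0 in rIL17 and was at 0 in both PBS libraries. Of 8 leukocyte markers 4 had a row, summing to 112.6 and 132.4 in rIL17 and 119.7 and 122.3 in PBS, nearly all of it Cd68. Fibroblast markers summed to 2970.6 and 2964.6 in rIL17 and 2442.1 and 2551.6 in PBS, nearly all of it Pdgfra. The other fibroblast markers with a row differed among themselves: Pdgfrb had 24.1 and 26.1 in rIL17 and 36.3 and 33.8 in PBS, Col1a1 29.2 and 30.1 in rIL17 and 51.0 and 37.8 in PBS, and Dcn 62.3 and 46.1 in rIL17 and 26.5 and 17.9 in PBS. Endothelial markers summed to 7.0 and 8.0 in rIL17 and 6.9 and 8.0 in PBS. The part of these markers in the results below was not tested.

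The libraries differed along transcript GC content, with a larger gap between the PBS replicates than between the rIL17 replicates. For the 799 tested genes with a GC content under 40%, PBS replicate 2 minus PBS replicate 1 had a median log2 difference of -0.48. There rIL17 replicate 2 minus rIL17 replicate 1 had a median of -0.15, and rIL17 minus PBS one of 0.56. For the 2646 genes from 40% to 45% these medians were -0.22, -0.08 and 0.19. For the 3504 genes from 50% to 55% they were 0.06, 0.02 and -0.06. A correction for GC content removes such a trend whatever its source, which was not tested. Ptgs2 (40%), Ptges3 (43.2%), Ptger4 (43.6%) and Pla2g4a (44.1%) have AT-rich longest transcripts, while Ptgs1 (51.0%), Slco2a1 (52.3%), Ptges (53.1%) and Ptges2 (54.7%) do not. The differences of the 8 genes are therefore given also after a correction for GC content.

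Most of the pathway was expressed at a high level in 4T1 cells with or without the cytokine. Set per kilobase of annotated exons, so that genes can be compared, the mean level over the 4 libraries was highest for Ptges3 (869 normalized counts per kilobase), followed by Ptgs1 (712), Ptgs2 (699), Slco2a1 (643), Ptges (557), Pla2g4a (307), Ptges2 (189) and Ptger4 (12.3). Ptgs1 stood above 90.1% of the 13479 tested genes on this scale, Ptges above 86.8% and Ptger4 above 11.5%. The ranges of Ptgs1, from 688 to 723 normalized counts per kilobase over the 4 libraries, and of Ptgs2, from 615 to 812, overlapped, as did those of Ptgs2 and Slco2a1 (599 to 699), and Ptges3 (449 to 1130) overlapped all of these. Slco2a1 and Ptges (483 to 634) overlapped too, while Pla2g4a (278 to 329), Ptges2 (157 to 233) and Ptger4 (11.4 to 13.3) were separate from their neighbours in the order. The order depends on the transcript taken: per kilobase of the longest protein-coding transcript, Slco2a1 came first with 1220, before Ptgs1 with 965 and Ptges3 with 964.

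**Figure D1:**
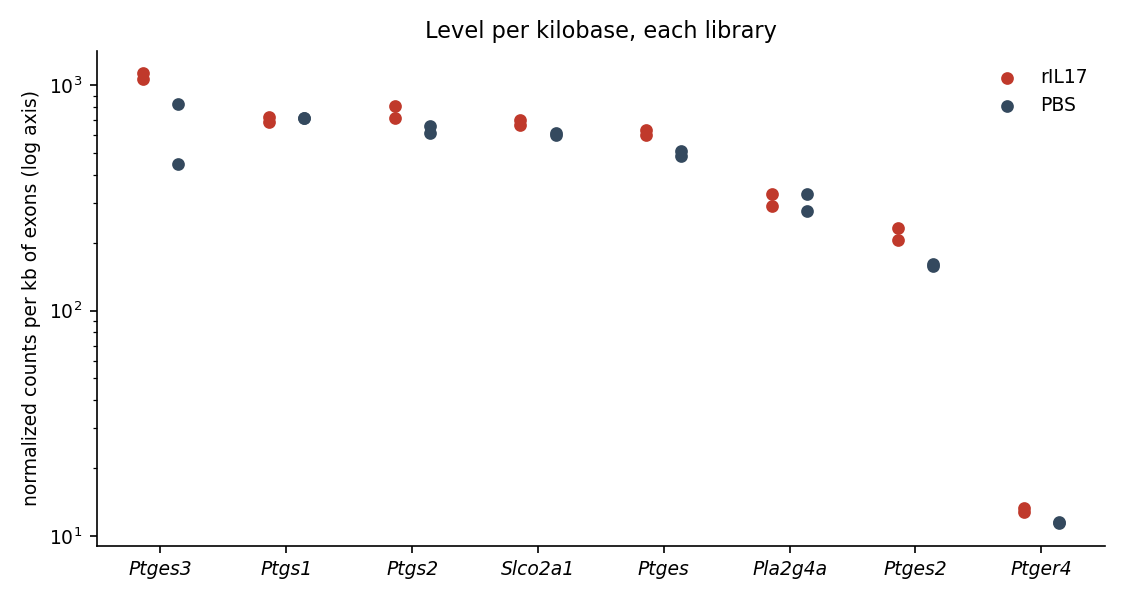
Normalized counts per kilobase of annotated exons (vertical log axis) of the 8 genes in each library, rIL17 on the left and PBS on the right of each gene, ordered by the mean over all libraries. From Ptges3 to Ptges the means lie between 869 and 557, and Ptger4 lies far below at 12.3.

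Of the genes of prostaglandin E2 synthesis, Ptgs2 and the 3 terminal synthase genes had more RNA in the rIL17 libraries, by 19.7% to 72.7%, while Ptgs1 and Pla2g4a had ratios of 0.982 and 1.02, and no difference passed the test. Both ends of that range depended on a choice: Ptgs2 turned to a log2 fold change of -0.19 with the GC correction, and that of Ptges3 was 0.41 without PBS replicate 2, against 0.85 with it. The test was limma on log2(normalized count + 1) over the genes whose mean across the 4 libraries reached 10 normalized counts, with Benjamini-Hochberg adjustment and a threshold of 0.05. Of the 8 genes, all tested, 0 passed by limma and 0 by limma-voom, where limma called 0.764% of all 13479 genes (80 higher and 23 lower in rIL17, or 186 higher and 137 lower after the GC correction). At an unadjusted p below 0.05 there were 5, all higher in rIL17, where 11.0% of all genes were so. In 6 of the 8, both rIL17 libraries lay above both PBS libraries, which 25.4% of all tested genes did, and in 0 did both lie below, which 24.7% did. The median log2 fold change of the 8 was 0.22, or 0.11 after the GC correction, beside 0.00 and -0.02 over all genes tested. After the GC correction 2 genes passed, Ptges and Ptges2, where 2.40% of all genes did.

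**Figure D2:**
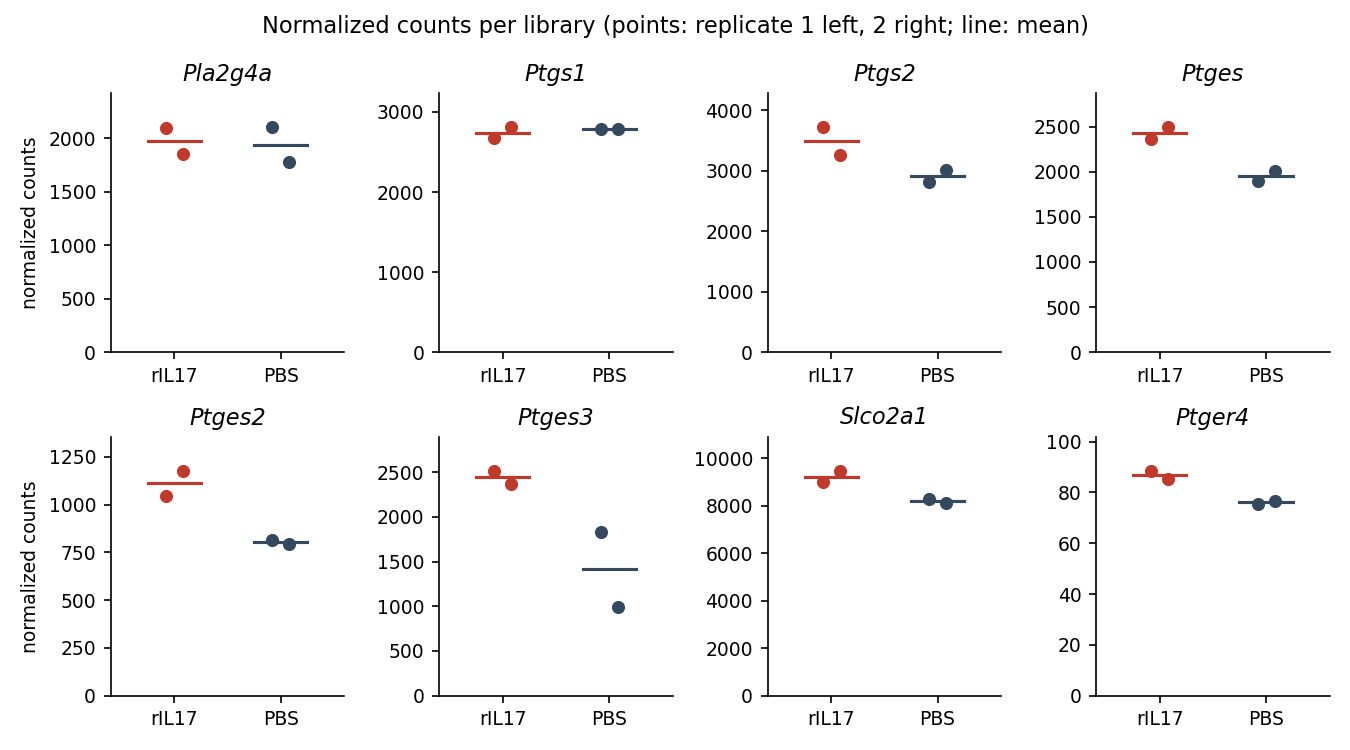
Normalized counts (vertical axis, from 0) of the 8 genes in each rIL17 and PBS library, with 1 point per library and a line at the group mean. For Ptgs2, Ptges, Ptges2, Ptges3, Slco2a1 and Ptger4 both rIL17 points lie above both PBS points, and for Pla2g4a and Ptgs1 the groups overlap.

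For the gene of substrate release, the first step of the pathway, the groups overlapped. Pla2g4a (ENSMUSG00000056220, mm10 chromosome 1, 149829618 to 149961290, minus strand) encodes cytosolic phospholipase A2 alpha, the enzyme that frees arachidonic acid for prostaglandin synthesis. It had 2102.0 and 1856.4 normalized counts in the rIL17 libraries, against 2104.6 and 1775.0 in the PBS libraries. The groups overlapped, and in each of them replicate 2 was the lower one. The log2 fold change was 0.03 (SE 0.11, 95% confidence interval -0.22 to 0.28, limma adjusted p = 0.912). Its sign was not stable: it was -0.09 without PBS replicate 2, -0.06 without rIL17 replicate 1 and -0.12 after the GC correction (limma adjusted p = 0.351). Its longest transcript, of 3453 bases, is not protein-coding, and with the longest protein-coding transcript, of 2856 bases, the corrected value was -0.29 (limma adjusted p = 0.051).

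Of the cyclooxygenase genes, Ptgs2 was higher in both rIL17 libraries, while the groups overlapped for Ptgs1. Ptgs2 (ENSMUSG00000032487, chromosome 1, 150100031 to 150108227, plus strand), the inducible isoenzyme, had 3719.5 and 3260.5 normalized counts in rIL17, against 2817.8 and 3013.0 in PBS. The groups did not overlap, and the gap between the lower rIL17 library and the higher PBS library was smaller than the distance between the rIL17 libraries. The mean was 3490.0 ± 325 in rIL17 and 2915.4 ± 138 in PBS (SD, n = 2 each), a ratio of 1.20. The log2 fold change was 0.26 (SE 0.08, interval 0.06 to 0.46), which did not pass (limma adjusted p = 0.225). PBS replicate 2, which was lower than PBS replicate 1 in AT-rich transcripts at the median, had the higher PBS value for this gene. Without PBS replicate 2 the log2 fold change was 0.31. After the GC correction the sign turned, to -0.19 (limma adjusted p = 0.543), so no direction can be given for Ptgs2 apart from that choice.

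Ptgs1 (ENSMUSG00000047250, chromosome 2, 36230426 to 36252272, plus strand), the constitutive isoenzyme, had 2672.0 and 2809.2 normalized counts in rIL17, against 2788.4 and 2793.3 in PBS. The rIL17 values lay on both sides of the PBS values. Its log2 fold change was -0.03 (SE 0.06, interval -0.18 to 0.12, limma adjusted p = 0.873), and 0.01 without rIL17 replicate 1 or after the GC correction.

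Per kilobase of annotated exons, the levels of the isoenzymes lay close together. Ptgs2 made up 54.1% and 49.6% of the cyclooxygenase level on this scale in rIL17, against 46.1% and 47.8% in PBS. The size of the share depends on the length taken. Per kilobase of the longest transcript it was 47.3% and 42.8% in rIL17 and 39.4% and 41% in PBS, so Ptgs2 was below Ptgs1 in every library. The rIL17 libraries had the higher shares, by 4.91 percentage points at the mean, or 4.81 with the longest transcript. The groups did not overlap, but 2 libraries against 2 cannot give a p below 0.333 in a two-sided exact permutation test, which was the value found. On the log2 scale the difference of Ptgs2 minus Ptgs1 was 0.35 in rIL17 and 0.06 in PBS, a gap of 0.28. With the GC correction the gap was -0.20. Without rIL17 replicate 1 the gap was 0.15 and the share differed by 2.64 percentage points.

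The terminal synthase genes had the smallest p-values of the group. Ptges (ENSMUSG00000050737, chromosome 2, 30889471 to 30929863, minus strand) encodes microsomal prostaglandin E synthase-1, the inducible synthase usually coupled to COX-2. It had 2360.4 and 2492.2 normalized counts in rIL17, against 1897.5 and 2004.7 in PBS. Both groups were tight and well apart, with means of 2426.3 ± 93.2 in rIL17 and 1951.1 ± 75.8 in PBS (SD, n = 2 each). The ratio was 1.24 and the log2 fold change 0.31 (SE 0.07, interval 0.15 to 0.48), which did not pass (limma adjusted p = 0.114, rank 369 of the 13479 genes by p). After the GC correction it was 0.36 and passed (limma adjusted p = 0.0189). With a library left out, it passed without PBS replicate 1 (0.27, limma adjusted p = 0.0321), a setting in which 2158 of 13479 genes were called and PBS replicate 2 is the only control. It did not pass without PBS replicate 2 (0.35, adjusted p = 0.0524), without rIL17 replicate 1 (0.35, 0.803) or without rIL17 replicate 2 (0.28, 0.546).

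Ptges2 (ENSMUSG00000026820, chromosome 2, 32395896 to 32405772, plus strand), the gene of the membrane-associated synthase mPGES-2, had 1044.5 and 1177.4 normalized counts in rIL17, against 813.4 and 793.5 in PBS. The lower rIL17 library stood well above the higher PBS library. The mean was 1110.9 ± 94.0 in rIL17 and 803.4 ± 14 in PBS (SD, n = 2 each), a ratio of 1.38. The log2 fold change of 0.46 (SE 0.09, interval 0.25 to 0.68) had the smallest adjusted p of the 8 genes, 0.0862 by limma and 0.0746 by limma-voom. It was 0.52 with an adjusted p of 0.0224 by limma after the GC correction, and 0.48 with 0.0126 without PBS replicate 1, the same setting of 2158 calls. It did not pass without PBS replicate 2 (0.45, limma adjusted p = 0.0732), without rIL17 replicate 1 (0.55, 0.564) or without rIL17 replicate 2 (0.38, 0.49).

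Ptges3 (ENSMUSG00000071072, chromosome 10, 128058954 to 128077272, plus strand) encodes p23, known as cytosolic prostaglandin E synthase and as a co-chaperone of Hsp90. It had 2516.2 and 2365.9 normalized counts in rIL17, against 1830.8 and 995.4 in PBS. PBS replicate 2 was far below the other 3 libraries, by 0.88 on the log2 scale below PBS replicate 1 (a difference of -0.88). The log2 fold change of 0.85 (SE 0.25, interval 0.24 to 1.46, limma adjusted p = 0.193) was the largest of the 8 with all libraries. Without PBS replicate 2 it was 0.41, below the 0.45 of Ptges2. It was 1.29 without PBS replicate 1, where the low PBS replicate 2 is the only control. Without rIL17 replicate 1 it was 0.81, and without rIL17 replicate 2 it was 0.9. After the GC correction it was 0.65 (limma adjusted p = 0.126). The processed pseudogene Ptges3-ps on chromosome 6 had 602.2 and 652.9 normalized counts in rIL17 and 582.8 and 540.0 in PBS. Copies of this kind can share reads with their parent gene, which would make the counts of Ptges3 uncertain. The likeness of the sequences and the sharing of reads were not tested.

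**Figure D3:**
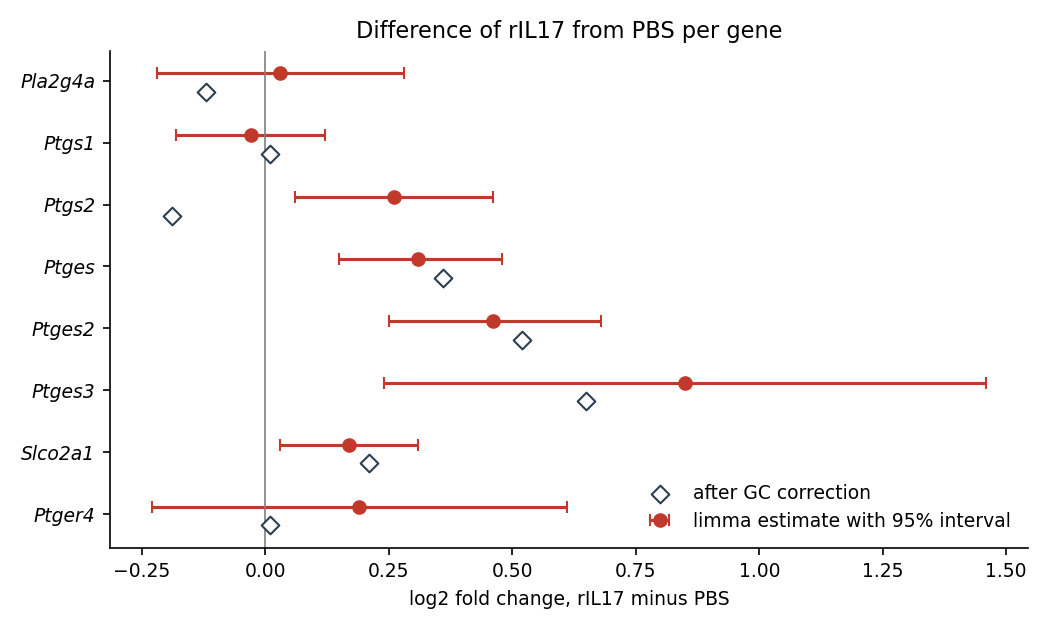
Log2 fold change of rIL17 over PBS (horizontal axis) for each gene in the order of the pathway, as the limma estimate with its 95% confidence interval (filled circles) and after the GC correction (open diamonds). The intervals of Ptgs2, Ptges, Ptges2, Ptges3 and Slco2a1 lie above 0, and the corrected value of Ptgs2 lies below 0 at -0.19.

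Clearance and reception differed by little. Slco2a1 (ENSMUSG00000032548, chromosome 9, 102988712 to 103096002, plus strand) encodes the prostaglandin transporter, which carries prostaglandins into cells for oxidation by the dehydrogenase that Hpgd encodes. It had 8976.0 and 9469.5 normalized counts in rIL17, against 8277.9 and 8115.3 in PBS. The groups did not overlap, and the ratio of the means was 1.13. The log2 fold change was 0.17 (SE 0.06, interval 0.03 to 0.31, limma adjusted p = 0.245), and 0.21 after the GC correction (adjusted p = 0.0817).

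Ptger4 (ENSMUSG00000039942, chromosome 15, 5206661 to 5244187, minus strand) encodes EP4, a receptor for prostaglandin E2 that raises cyclic AMP. It had 88.5 and 85.2 normalized counts in rIL17, against 75.5 and 76.6 in PBS. The groups did not overlap, but at this low count the interval is wide: the log2 fold change was 0.19 (SE 0.18, interval -0.23 to 0.61, limma adjusted p = 0.636). It was 0.01 after the GC correction by the longest transcript, which is not protein-coding, and 0.22 after the correction by the longest protein-coding transcript. Exons of Ptger4 share 1015 bases (15.3%) with the processed pseudogene Gm15937, not analysed here, and 82 bases with Ttc33, both on the opposite strand, and the strand setting of the counting is not given in the sources used here. Of the other EP receptor genes, Ptger1 had 21.1 and 17.0 normalized counts in rIL17 and 29.4 and 16.9 in PBS, and Ptger2 had 1.0 and 2.0 in rIL17 and 0 in both PBS libraries. Ptger3, also on the fixed receptor list, was not analysed here.

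**Figure D4:**
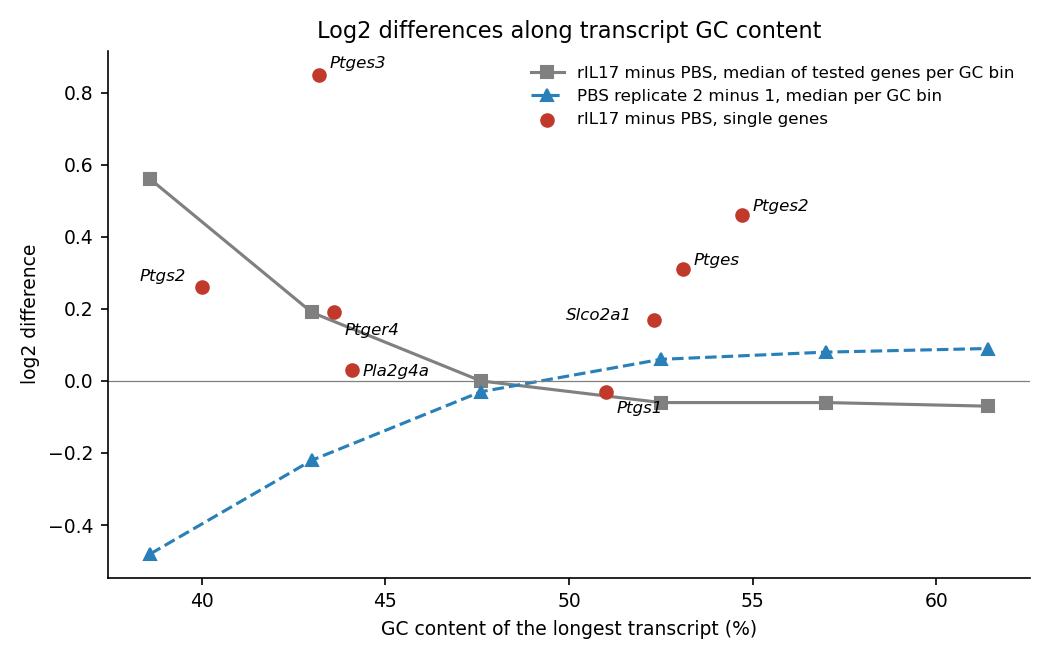
Log2 differences (vertical axis) against the GC content of the longest transcript (horizontal axis, percent): the 8 genes (red points), the median of rIL17 minus PBS over the tested genes of each GC bin (grey squares) and the median of PBS replicate 2 minus replicate 1 (blue triangles). Ptgs2 at 40% lies in the range where the median of all genes is raised, while Ptges and Ptges2 lie above 50%, where that median is -0.06.

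The genes with a pattern most like Ptgs2 over the 4 libraries, by the Euclidean distance of mean-centred log2 values, were Pqlc2 (distance 0.0267), Pter (0.0355) and Nudcd2 (0.0381). Those most like Ptges were Itga7 (0.0145), Gm12166 (0.0236) and Slc39a14 (0.0385). None of these 6 genes passed the limma test on all 4 libraries without a GC correction. Slc39a14, which encodes a zinc and iron transporter, came nearest with a log2 fold change of 0.31 (limma adjusted p = 0.0856), and passed after the GC correction (0.36, adjusted p = 0.0122) and without PBS replicate 2 (0.34, adjusted p = 0.0367). Itga7 passed after the GC correction (0.37, limma adjusted p = 0.0442), and Pter turned from 0.26 to -0.27 with it. With 4 libraries many genes can share a profile, so the distances describe these libraries only.

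The wider set of eicosanoid and cyclic AMP response genes showed no shared direction. In 5 fixed lists of such genes, 54 were tested, 20 of them from the cyclic AMP and CREB response. Of the 54, 29 were higher and 25 lower in rIL17, and the median log2 fold change was 0.01. By limma 0 passed, where 0.764% of all 13479 tested genes did, and by limma-voom 0 passed, where 136 of all tested genes did. At an unadjusted p below 0.05 by limma there were 6 higher and 4 lower, beside 1478 higher and 673 lower of all tested genes. Both rIL17 libraries lay above both PBS libraries in 14 of the 54 and below in 17, where 25.4% and 24.7% of all tested genes did.

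Among phospholipases and genes of arachidonate handling, 15 were tested, with 8 higher and 7 lower and a median of 0.01. Acsl4, the acyl-CoA synthetase that prefers arachidonate, had 3119.3 and 2692.8 normalized counts in rIL17, against 2065.3 and 1579.1 in PBS. The groups did not overlap, and the log2 fold change of 0.68 (SE 0.14, limma adjusted p = 0.102) was 0.16 after the GC correction (adjusted p = 0.212) and 0.49 without PBS replicate 2, where it passed (adjusted p = 0.0452). Anxa1, encoding annexin A1, known as an inhibitor of phospholipase A2, had 11809.9 and 11049.1 in rIL17, against 9940.9 and 9760.0 in PBS (log2 fold change 0.21, limma adjusted p = 0.181, and 0.03 after the GC correction).

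Among the other prostanoid synthases and reductases, 8 were tested, with 4 higher and 4 lower and a median of -0.05. Akr1b3, an aldo-keto reductase with prostaglandin F synthase activity, had 1066.6 and 1052.1 normalized counts in rIL17, against 1159.7 and 1299.7 in PBS (log2 fold change -0.21, limma adjusted p = 0.291). Ptgr1, encoding a prostaglandin reductase of the breakdown pathway, had 595.1 and 576.7 in rIL17, against 650.5 and 661.3 in PBS (-0.16, adjusted p = 0.396). The synthase genes of prostaglandin D2, prostacyclin and thromboxane had few counts: Ptgds had 24.1 and 18.1 in rIL17 and 27.5 and 24.9 in PBS, Ptgis 5.0 and 2.0 in rIL17 and 5.9 and 2.0 in PBS, and Tbxas1 3.0 and 6.0 in rIL17 and 5.9 and 3.0 in PBS.

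Of the other receptors and transporters, 4 were tested, with 1 higher and 3 lower. Ptgir, the prostacyclin receptor gene, had 8.0 and 9.0 normalized counts in rIL17, against 13.7 and 18.9 in PBS (log2 fold change -0.85, SE 0.41, limma adjusted p = 0.374). Ptgfrn, encoding a protein that associates with the prostaglandin F2 alpha receptor, had 6172.3 and 6331.4 in rIL17, against 6531.5 and 6720.1 in PBS (-0.08, adjusted p = 0.515). In the lipoxygenase and epoxide branch, 7 genes were tested, with a median of 0.02 and values from -0.21 to 0.15. Its smallest p-values belonged to Gpx4, the phospholipid hydroperoxide glutathione peroxidase (-0.12, limma adjusted p = 0.46), and Ephx1, an epoxide hydrolase (0.15, limma adjusted p = 0.525). Lta4h, encoding leukotriene A4 hydrolase, had 1435.5 and 1391.0 normalized counts in rIL17 and 1475.6 and 1502.5 in PBS. Alox5ap, the 5-lipoxygenase activating protein gene, had 9.0 and 5.0 in rIL17 and 2.0 and 3.0 in PBS.

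Genes of the cyclic AMP and CREB response, which EP4 signals can reach, went both ways: 20 were tested, 12 were higher and 8 lower, with a median of 0.07. At an unadjusted p below 0.05 by limma, 4 were higher and 2 lower, beside 1478 higher and 673 lower of all 13479 tested genes. The 2 genes with the smallest p, given next, were both lower. Pde4a, a phosphodiesterase gene, had 475.5 and 510.5 normalized counts in rIL17, against 701.5 and 706.0 in PBS. It had the smallest p of the list, with a log2 fold change of -0.51 (SE 0.09, limma adjusted p = 0.0703, and -0.46 with 0.0287 after the GC correction). Sik1, a salt-inducible kinase gene that CREB activates, had 1508.9 and 1496.3 in rIL17, against 1823.9 and 1989.8 in PBS (-0.34, limma adjusted p = 0.112, and -0.29 with 0.0461 after the GC correction).

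**Figure D5:**
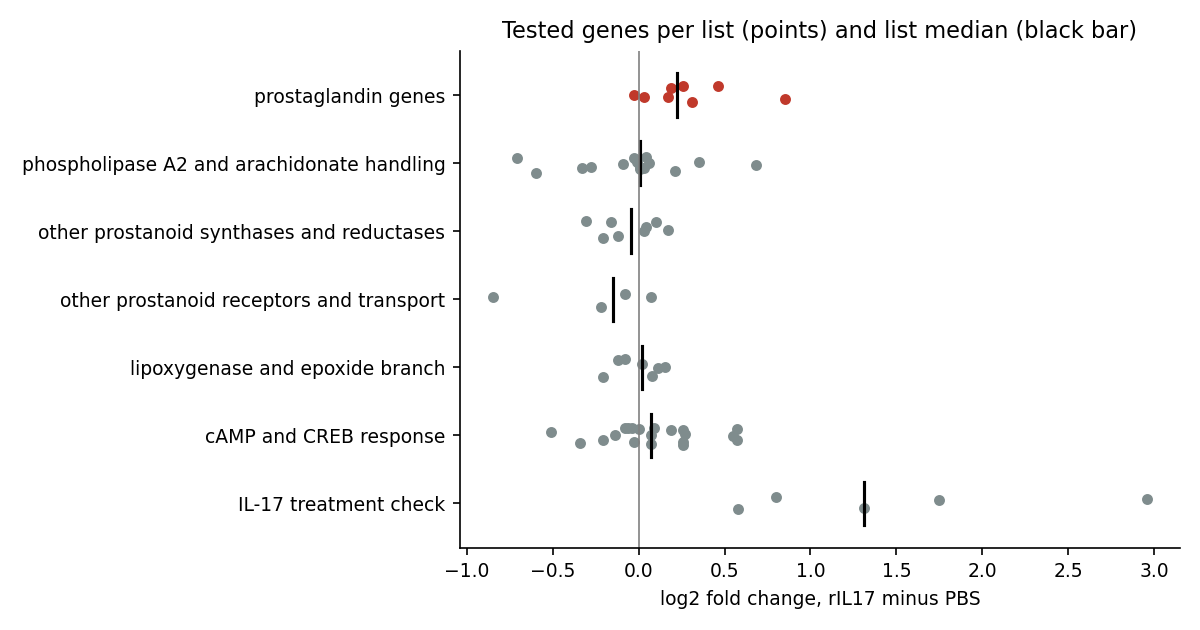
Log2 fold change of rIL17 over PBS (horizontal axis) of each tested gene in the prostaglandin group, in the 5 lists of neighbouring pathway genes and in the treatment check, with a black bar at each list's median. The prostaglandin genes have a median of 0.22, the 5 lists medians from -0.15 to 0.07, and the treatment check 1.31.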

How the data were processed

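RNA from 4T1 cells was sequenced after treatment with rIL17 or PBS, with 2 libraries each. Per the labels' protocols, the kit was directional and the input total RNA. HISAT2 2.0.5, featureCounts 1.5.0-p3, CASAVA and the build mm10 are named in the submitters' processing notes; annotation release and strand setting: not given in the sources used here. The deposited values are a normalized signal: in each library 100.0% were within 0.001 of a whole multiple of 1 step (0.9811 to 1.0053), as read counts divided by 1 factor per library would be. They were tested with limma 3.58.1 (R 4.3.3, mean-variance trend) on log2(value + 1), over genes with a mean of at least 10 over the 4 libraries, a filter that ignores the groups. The fit was tested on simulated data with large planted changes, equal spread in every library and no GC trend. That test therefore does not cover differences as small as those of the prostaglandin genes. Fold changes on this scale understate changes of low genes.

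The edgeR and DESeq2 alternatives were not used, since the deposited values are normalized; limma-voom on the deposited values was added. Positions, lengths and GC content are from GENCODE M21 on mm10; GC content was available for 99.9% of tested genes, and the correction was a loess (span 0.5) per library. Intervals are 95%. The difference of Ptges minus Hpgd was not analysed here. Genes named outside the 9 are the treatment check, cell type markers of the fixed lists, the 2 with the smallest p in each list, and the 3 nearest in pattern to Ptgs2 and to Ptges. Others, Ptger1, Ptger2, Ptgds, Ptgis, Tbxas1, Lta4h, Alox5ap, Ptges3-ps and Ttc33, were chosen after their values were seen. Ptger3 and Gm15937 are named without values. The genes and lists were chosen with earlier results of these data known.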

Additional observations from a re-analysis of the deposited data

How the results depend on the processing

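The count of genes called by limma, 103, depended on the processing. It was 168 with upper-quartile scaling, 163 with total-count scaling, 169 with robust shrinkage, 323 with the GC correction (306 with the longest protein-coding transcript) and 0 with no filter or with a mean of at least 1 in either group, where 2739 and 2642 genes had an unadjusted p below 0.05. With each library left out in turn it ran from 1 to 2158. With 1 library left in a group, that library is assumed to vary like the other group, and the chi-square per gene was 3.77 between the rIL17 libraries and 14.2 between the PBS libraries. Of the 8 prostaglandin genes, 0 were called; 2 were with either GC correction, and 0 to 3 with a library left out. Of the other pathway genes, 0 were called; 1 was with upper-quartile scaling, total-count scaling or robust shrinkage, 2 with either GC correction, and 0 to 7 with a library left out. The replicate numbers pair nothing in the labels. With the replicate block, 1124 genes, 3 prostaglandin genes (Ptges, Ptges2 and Ptges3) and 4 other pathway genes were called, and with the replicate block and the GC correction 581, 3 and 2; deviations of same-numbered libraries correlated at 0.13 across genes.

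Signs turned for Ptgs2 with the GC correction (-0.19, also with the block, and -0.25 with the protein-coding transcript), for Ptgs1 with each GC correction and without rIL17 replicate 1 (0.01), and for Pla2g4a with upper-quartile scaling (-0.01), the GC corrections (-0.12, -0.12 with the block, and -0.29), without rIL17 replicate 1 (-0.06) and without PBS replicate 2 (-0.09); its values ran from -0.09 to 0.15 with a library left out, those of Ptgs1 from -0.06 to 0.01. The gap of Ptgs2 minus Ptgs1 turned to -0.20 with the GC correction. The cause was not tested. Ptges, Ptges2, Ptges3 and Slco2a1 were higher in rIL17 under every alternative run. For these genes both rIL17 libraries lay above both PBS libraries, which 25.4% of all tested genes did, so leaving out 1 library could not turn the sign. The filters, pseudocount, robust shrinkage, replicate block and limma-voom could not turn it either. Only the scalings and the GC corrections could have done so. Ptger4 had no negative value, but it was at 0.01 with the GC correction (limma adjusted p = 0.988), also with the block. At about 80 normalized counts Ptger4 is limited by depth. The edgeR and DESeq2 alternatives were not run.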
